A study of Mus musculus with 9 samples.

Results

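The S100 and calmodulin-like genes described here are 9 genes of the families of EF-hand calcium-binding proteins, S100a4, S100a6, S100a10, S100a11, S100a13, S100a14, S100a16, Calm4 and Calml3, chosen by symbol from the 24532 genes of the table. S100a8 and S100a9 were not among them. All 9 were detected in every library and passed the filter on low counts, which left 14507 genes for testing. The RNA came from skin cells of C57BL/6 mice aged 1, 7 and 14 days after birth. The sample titles call the cells keratinocytes, and each column name begins with SPF. Each age has 3 libraries, which makes 9, and the labels name no mutation or treatment. Living cells that lacked the leukocyte protein CD45.2 were taken by flow sorting, and stranded mRNA libraries were sequenced on a NovaSeq instrument. No keratinocyte protein was used in the gate, and neither sex nor pooling of animals is stated, so p-values measure the spread between libraries, which may be technical. The table names the earliest libraries D0, which was read as day 1, the only age without a column name of its own. Libraries carry the numbers of their column names, which run from 1 to 3 at day 7 and from 4 to 6 at the other ages.

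S100 proteins are small proteins, most of which bind calcium through a pair of EF-hands, the helix-loop-helix motif of many calcium sensors, and then attach to partners such as annexins and cytoskeletal proteins. Calmodulin is the general calcium sensor of animal cells, and Calm4 and Calml3 encode relatives of it that are found mainly in surface epithelia. In the epidermis calcium is low at the basal layer and high in the granular layer, and it drives keratinocytes to differentiate. Many S100 genes lie in a cluster that flanks the epidermal differentiation complex, the genomic block that also encodes the cornified envelope proteins.

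Total counts lay between 50670191 and 62970768 per library. Levels are given as CPM, the counts scaled to a common library size by trimmed mean of M-values (TMM), and levels of different genes are compared as CPM per kilobase of merged exons. The basal keratin gene Krt5 held place 1 among all genes by mean CPM per kilobase at each day, and Krt14 place 2 at day 1 and place 3 at days 7 and 14. Counts of Ptprc, the gene of CD45, did not exceed 9. The long noncoding RNA Xist of the inactive X chromosome was at 0 counts in the day 7 libraries, and the Y-linked Ddx3y at 0 counts in the day 14 libraries, while the day 1 libraries held transcripts of each, so transcripts tied to sex differ in each comparison, and sex and age cannot be told apart. The headers of the day 7 libraries also have another style, and a separate preparation cannot be told apart from age there.

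The 9 genes together took from 0.165% to 0.178% of raw counts at day 1, from 0.238% to 0.243% at day 7 and from 0.198% to 0.222% at day 14. These shares are of library totals, without TMM scaling. On the TMM scale the 9 summed to 1502 to 1622 CPM at day 1, 2326 to 2384 CPM at day 7 and 2218 to 2465 CPM at day 14. Days 7 and 14 overlapped on that scale. In the first week (day 7 over day 1), 8 of the 9 passed edgeR's quasi-likelihood test (Benjamini-Hochberg adjusted p under 0.05), all 8 higher at day 7. Of the genes tested, 25.5% were called higher and 24% lower there, 49.4% in all. In the second week (day 14 over day 7), 4 members were higher and 2 lower, against 32.5% and 35.1% of the genes tested and 67.6% in all. Over the whole span (day 14 over day 1), 8 members were higher and 1, S100a16, was lower, against 35.5% and 38.4%, and 73.9% in all. S100a4, S100a10 and Calm4 rose in both weeks, as did 12.3% of the genes tested. All 9 passed the test for any difference among the days, as did 82.1% of the genes tested. In bulk RNA, a change in the number of cells that express a gene and a change in RNA per cell cannot be told apart.

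The median log2 fold change of the 9 was 0.56 in the first week, 0.18 in the second and 0.97 over the whole span, beside medians over all genes tested of -0.001, -0.03 and -0.05. Scaling by library totals alone set the medians over all genes to -0.10, -0.21 and -0.32, and those of the 9 to 0.46, 0.01 and 0.70, so that the second-week median of the 9 was near 0. Against a minimum fold of 1.5, S100a4, S100a6 and Calm4 were called higher in the first week, as were 5.34% of the genes tested, beside 6.98% called lower and 12.3% in all. In the second week Calml3 was called higher (13.1% of the genes tested higher, 8.86% lower, 22% in all). Over the whole span the same test called S100a4, S100a6, S100a10, S100a13, Calm4 and Calml3 higher (18.1% higher, 16.8% lower, 34.8% in all). The call of S100a10 there (adjusted p = 0.0227) was lost on leaving out library 5 of day 1 (0.138), or library 4 (0.0504) or 5 (0.0921) of day 14, and that call and the call of S100a13 were lost with library totals alone (1 and 0.0899). Over all alternatives these p-values ran from 0.0143 to 1 for S100a10 and from 0.000305 to 0.0899 for S100a13.

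**Figure D1:**
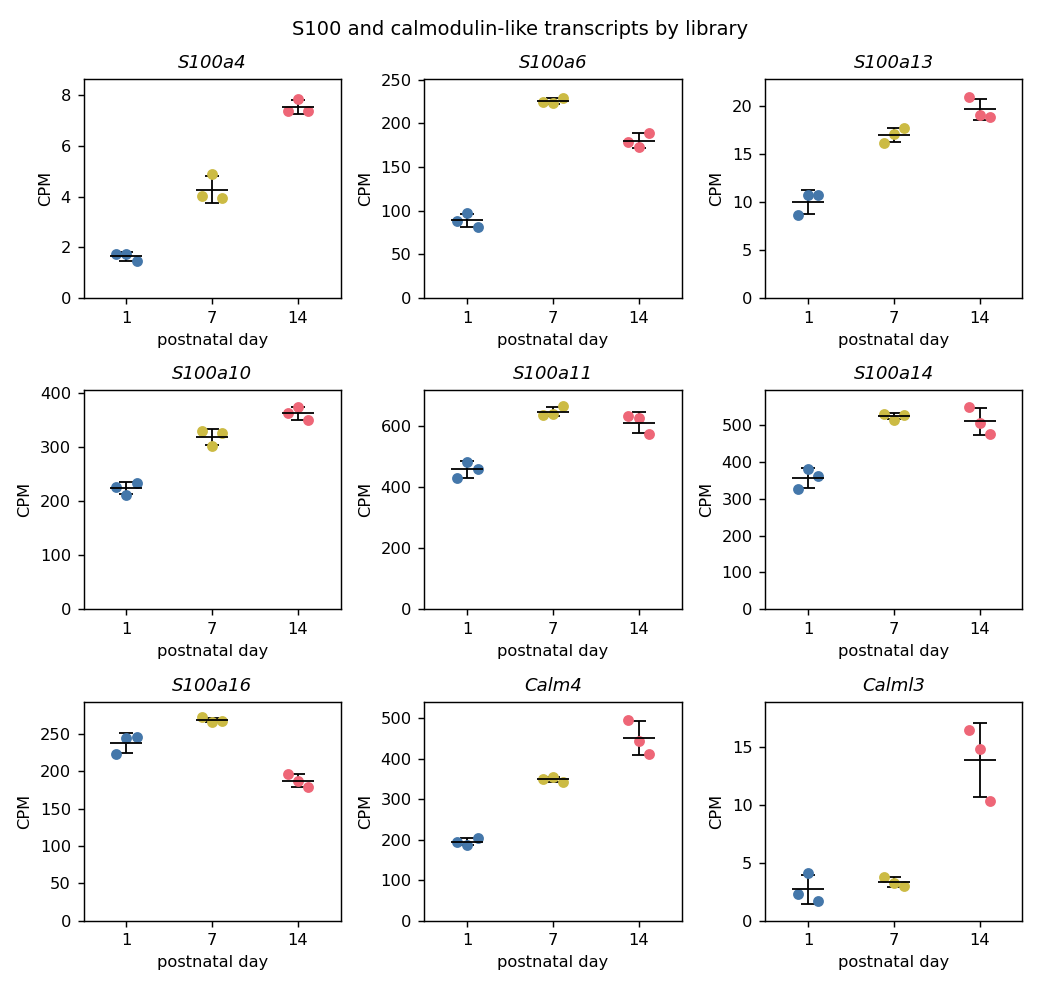
TMM-scaled CPM (vertical axis, from 0) of each gene by postnatal day (horizontal axis). Points are libraries, bars the mean ± SD of 3. S100a4, S100a10, S100a13 and Calm4 stand higher at each later day, S100a6 is highest at day 7, S100a16 is lowest at day 14 and Calml3 stands apart at day 14.

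Per kilobase, S100a11 was the most abundant of the 9 at each day, at 897 ± 53.2 CPM per kilobase at day 1, 1269 ± 29.9 at day 7 and 1198 ± 65.5 at day 14 (SD, n = 3 each). It held places 22, 17 and 23 among the 23644 genes with a length at these days and took from 46.4% to 51.8% of the summed level of the 9. Calm4 followed at each day, at 212 ± 9.19, 381 ± 6.95 and 491 ± 45.8 CPM per kilobase. Its libraries overlapped with those of S100a14 at day 1 (207 ± 15.6 CPM per kilobase) and lay above all genes that ranked below it at days 7 and 14. S100a14 and S100a10 came next, and their libraries overlapped at day 1 and at day 14 (296 ± 21.3 and 299 ± 9.67 CPM per kilobase at day 14) but not at day 7. S100a16 (166 ± 1.99 CPM per kilobase) and S100a6 (165 ± 2.43) overlapped at day 7. S100a16 was above S100a6 at day 1 and below it at day 14, without overlap at these days. S100a13, S100a4 and Calml3 were the lowest at each day, at 27.4 ± 1.55, 12.9 ± 0.45 and 9.77 ± 2.24 CPM per kilobase at day 14. S100a4 and Calml3 overlapped at day 1, and the other neighbours not named as overlapping did not. The order of neighbouring genes depends on the length used. Per kilobase of the longest transcript in place of merged exons, S100a11 stayed first but S100a10 came second at each day (327 ± 16.5, 466 ± 21.7 and 529 ± 17.1 CPM per kilobase at days 1, 7 and 14), above Calm4, with which it overlapped at day 14. S100a6 then stood above S100a16 at day 7 without overlap, and S100a4 above Calml3 at day 1 without overlap. The places of Calm4 and S100a10 are therefore not settled by these counts.

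S100a4 encodes a protein that binds non-muscle myosin and takes part in cell movement. It is abundant in mesenchymal and myeloid cells. Its levels in the 3 libraries were 1.73, 1.74 and 1.45 CPM at day 1, 4.01, 4.89 and 3.95 CPM at day 7 and 7.39, 7.84 and 7.38 CPM at day 14. The days did not overlap, as was also so for 60.3% of the genes tested between days 7 and 1, 72.7% between days 14 and 7 and 77.3% between days 14 and 1. S100a4 rose in both steps, with log2 fold changes of 1.38 ± 0.14 in the first week (SE, edgeR adjusted p = 5.74e-06) and 0.81 ± 0.13 in the second (adjusted p = 0.000148). Day 14 stood 4.59-fold above day 1. In the second week it did not pass the test against a fold of 1.5 (adjusted p = 0.065), but did without day 7 library 2 (0.0288) or with RLE size factors (0.0427), within a range of 0.0288 to 0.415 over the alternatives.

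Markers of other cell types moved in the same libraries as S100a4. Leukocyte markers, a list of 10 genes, summed to 1.05 to 1.32 CPM at day 1, 1.14 to 1.88 CPM at day 7 and 6.94 to 9.05 CPM at day 14. All 7 of its tested genes were higher at day 14 than at day 7, and 1 of 7, the Langerhans cell gene Cd207, was higher at day 7 than at day 1, where it had 0 counts. At day 1 Cd3e, of T cells, was also at 0, and no marker of the list was at 0 throughout day 7 or 14. Fibroblast markers were lower in sum at the later days, at 263 to 360 CPM at day 1, 57.7 to 106 CPM at day 7 and 26.8 to 47.0 CPM at day 14, with 3 of 9 tested genes lower and 0 higher at day 14 than at day 1. Fbln1 (mean 138 CPM at day 1 and 8.72 CPM at day 14) and Dcn (107 and 6.79 CPM) made up most of the day 1 sum. Of the 9 tested genes 6 were not called between these days, among them Col1a1 (7.61 and 6.57 CPM). Pdgfrb (0.19 and 0.54 CPM) and Dpt (0.42 and 0.72 CPM) had higher means at day 14. No fibroblast marker was at 0 throughout a day. Melanocyte and Schwann cell markers, none of them at 0 throughout a day, summed to 381 to 408, 110 to 133 and 16.6 to 20.6 CPM, all 9 lower at day 14 than at day 1. Erythroid markers, a list of 6 genes with 3 at 0 throughout day 1, summed to 0.391 to 2.51 CPM at day 1, 18.1 to 61.6 CPM at day 7 and 2.21 to 7.95 CPM at day 14, with 3 of 4 tested genes higher in the first week and 3 lower in the second. This list has its highest mean at day 7, as have S100a6, S100a11, S100a14 and S100a16. The summed leukocyte markers averaged 1.14 CPM at day 1, 1.45 CPM at day 7 and 8.18 CPM at day 14. S100a4 itself rose 2.61-fold over the first step. The part of these cell types in the changes of S100a4, S100a6 and the other members was not tested.

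**Figure D2:**
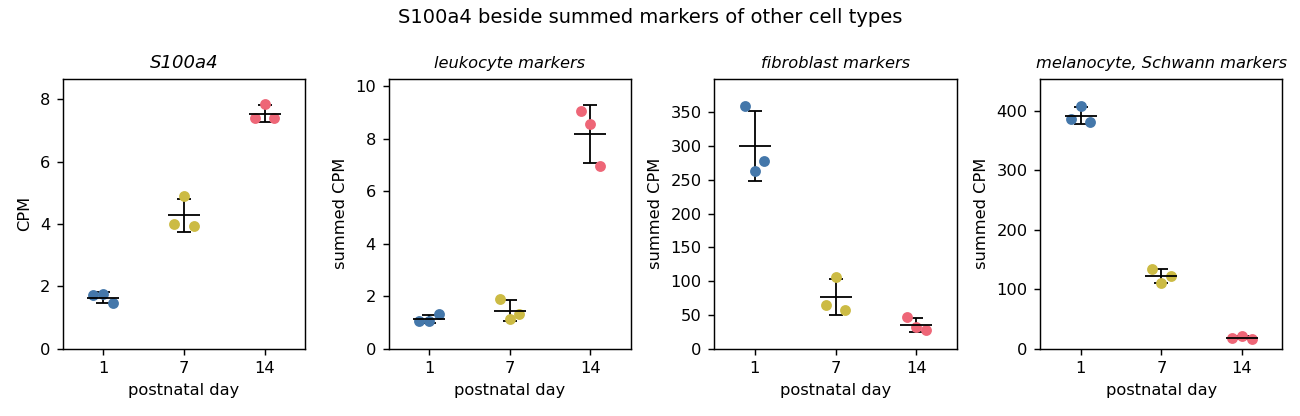
S100a4 (CPM) and the summed CPM of 3 lists of markers of other cell types by postnatal day, with libraries as points and mean ± SD of 3 as bars. S100a4 and the leukocyte sum are highest at day 14, while the fibroblast and the melanocyte and Schwann sums are highest at day 1. The day 1 fibroblast sum is mostly Fbln1 and Dcn.

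S100a4 had the widest range of day means on the log2 CPM scale (2.18) among the S100 members, and its promoter is shown for that reason. The 250 bases before its RefSeq start site (GRCm38.p6, plus strand, chr3:90603520-90603769), given 5′ to 3′, hold TATAAA, the TATA box motif, in capitals, at -31 from the start.
S100a4: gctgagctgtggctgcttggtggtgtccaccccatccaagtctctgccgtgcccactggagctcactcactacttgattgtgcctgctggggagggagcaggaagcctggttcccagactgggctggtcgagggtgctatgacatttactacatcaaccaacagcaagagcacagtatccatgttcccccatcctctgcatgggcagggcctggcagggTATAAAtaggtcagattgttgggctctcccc
Promoter windows were matched for 6 of the 9 members. Each was searched on both strands for TATAAA, for TGANTCA, bound by the AP-1 factors Fos and Jun, and for GGGCGG, bound by Sp and Klf factors. TATAAA was present in 12.4% of all 32851 windows, TGANTCA in 6.75% and GGGCGG in 32.7%. Among the 6 members, TATAAA was in the window of S100a4 alone. S100a16 had windows for 2 starts, of which the second held 1 TGANTCA and 1 GGGCGG. The windows of S100a6, S100a13 and Calm4 held none of the 3 motifs.

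S100a6 encodes calcyclin, which binds the ubiquitin ligase component Cacybp. It was at 88.0, 97.0 and 81.4 CPM at day 1, 224, 223 and 229 CPM at day 7 and 179, 173 and 189 CPM at day 14. Each library of day 7 was above all others, and each of day 14 above those of day 1. It rose between days 1 and 7, by 1.34 ± 0.06 on the log2 scale (adjusted p = 9.94e-09), and fell by 0.32 ± 0.06 (log2 fold change -0.32, adjusted p = 0.000501) between days 7 and 14. Up in the first step and down in the second was the pattern of 7.24% of the genes tested and of 2 of the 9 members, S100a6 and S100a16. Day 14 remained 2.03-fold above day 1. Cacybp was at 71.4 ± 4.45 CPM at day 14, against 80.5 ± 1.56 CPM at day 1, and fell (log2 fold change -0.17 ± 0.05, adjusted p = 0.00765).

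S100a4 and S100a6 lie 6848 bases apart on chromosome 3, with S100a5, which had 0 counts throughout, between them. The log2 ratio of S100a4 to S100a6 counts within a library, which does not depend on scaling (0.5 added to each count), was -5.75 ± 0.08 at day 1, -5.72 ± 0.19 at day 7 and -4.58 ± 0.11 at day 14 (SD, n = 3). Libraries of day 14 did not overlap with those of the earlier days, and days 1 and 7 overlapped. An exact permutation test over the 3 days (two-sided, 1680 assignments, smallest possible p = 0.00357) gave p = 0.0321, or 0.0429 adjusted over the 4 ratios examined. The adjusted value was 0.0643 without any single day 14 library and 0.0952 with a rank statistic, against a lowest of 0.0333 when single libraries were left out.

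S100a10 encodes a subunit of a heterotetramer with annexin A2 that lies under the plasma membrane. Its protein has lost calcium binding. Levels were 227, 212 and 234 CPM at day 1, 329, 302 and 326 CPM at day 7 and 364, 374 and 350.2 CPM at day 14, with no overlap between days. S100a10 rose in both steps, by 0.51 ± 0.05 log2 in the first week (adjusted p = 6.21e-06) and 0.18 ± 0.05 in the second (adjusted p = 0.00714). The second call was lost without day 7 library 2 (log2 fold change 0.14, adjusted p = 0.0541) and with library totals alone (0.01, 0.858), in a range of 0.000407 to 0.858.

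Anxa2, the annexin partner of S100a10, rose as well, with 2758 ± 38.6 CPM at day 14 against 1741 ± 19.9 CPM at day 1 (log2 fold change 0.66 ± 0.04, adjusted p = 5.31e-09). The log2 ratio of S100a10 to Anxa2 counts was -2.96 ± 0.07 at day 1, -2.87 ± 0.04 at day 7 and -2.93 ± 0.06 at day 14. Libraries of day 7 lay above those of day 1, and those of day 14 overlapped with each. The ratio did not differ detectably over the days (exact permutation test, p = 0.225, also after adjustment). Its day 14 minus day 1 difference was 0.03, and -0.00826 without day 1 library 5.

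S100a11 encodes a partner of annexin A1 that in human keratinocytes moves to the nucleus when calcium rises. It was at 430.2, 484 and 461 CPM at day 1, 638, 641 and 666 CPM at day 7 and 635, 627 and 574 CPM at day 14. The later days stood above day 1, and each library of day 14 lay below those of day 7. S100a11 rose between days 1 and 7 (0.50 ± 0.05 log2, adjusted p = 1.03e-05). The later step gave -0.08 ± 0.05 and did not pass (adjusted p = 0.189), but was called lower with library totals alone (-0.26, adjusted p = 0.00113), in a range up to 0.443.

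Anxa1 rose over the whole span, with 1376 ± 28.4 CPM at day 14 against 445 ± 43.3 CPM at day 1 (log2 fold change 1.63 ± 0.06, adjusted p = 2.19e-10). The log2 ratio of S100a11 to Anxa1 counts was 0.05 ± 0.22 at day 1, -0.11 ± 0.03 at day 7 and -1.17 ± 0.07 at day 14. Libraries of day 14 lay below all others, and days 1 and 7 overlapped. The exact permutation test gave p = 0.0143 (0.0357 adjusted over the 4 ratios). The adjusted value was 0.0571 without any single day 14 library and 0.0952 with a rank statistic, against a lowest of 0.0143 with single libraries left out.

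**Figure D3:**
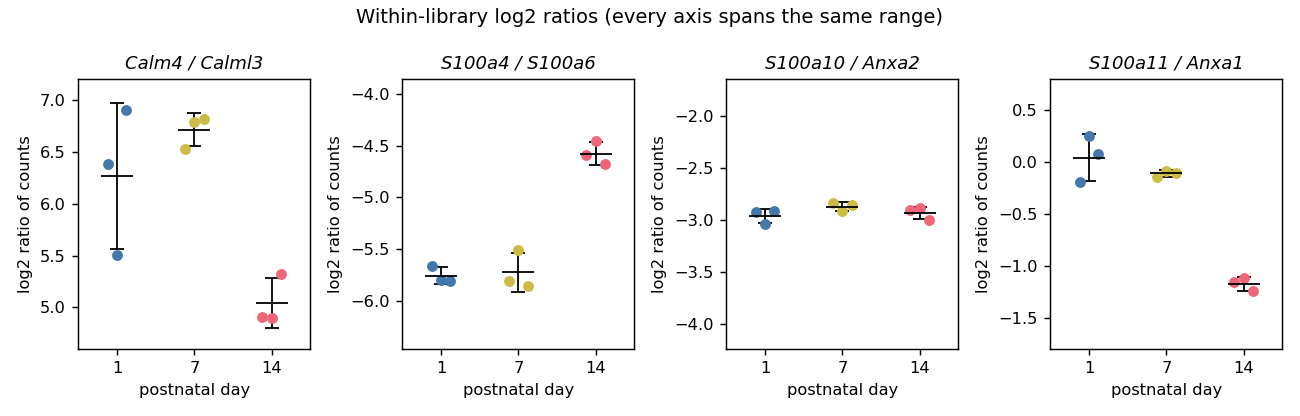
Log2 ratios of raw counts within each library (vertical axes, all of the same span) by postnatal day, with libraries as points and mean ± SD of 3 as bars. The S100a10 to Anxa2 ratio stays between -3.04 and -2.84, while the other 3 ratios set day 14 apart.

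The window before S100a11 is shown because it held the densest set of the motifs searched. In 250 bases (GRCm38.p6, plus strand, chr3:93520246-93520495) TGANTCA occurred at -136 and -38, both in capitals, and GGGCGG 3 times, at -64, -52 and -24, not capitalised. None of these sites overlapped another.
S100a11: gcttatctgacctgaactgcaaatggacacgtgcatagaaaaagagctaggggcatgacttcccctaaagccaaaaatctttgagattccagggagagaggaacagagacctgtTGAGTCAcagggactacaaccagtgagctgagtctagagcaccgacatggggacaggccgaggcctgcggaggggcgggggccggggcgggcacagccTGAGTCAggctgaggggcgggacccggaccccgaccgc
No binding was measured here. Of the 75-base stretches of annotated S100a11 transcripts, 37.8% also occurred in transcripts of the genes Gm12854 and Gm7665, so some of its reads may have been split or lost in counting. For S100a4, 44.8% occurred in a transcript of Gm42674. The other 7 members had no such shared stretch.

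S100a13 encodes a protein that takes part in the release of Fgf1 and interleukin 1 alpha, which lack signal peptides. It was at 8.59, 10.7 and 10.7 CPM at day 1, 16.1, 17.1 and 17.6 CPM at day 7 and 20.9, 19.1 and 18.9 CPM at day 14, without overlap between days. It rose between days 1 and 7 (0.76 ± 0.09 log2, adjusted p = 2.4e-05). The second step of 0.21 ± 0.09 stayed at an adjusted p of 0.0537, and passed without day 1 library 4 (0.0247), with DESeq2 (0.029), RLE size factors (0.0293), limma-voom (0.0407), a filter of 1 CPM (0.0391) or a fit of the compared days alone (0.0235), against 0.737 at the highest. Day 14 stood 1.96-fold above day 1 (adjusted p = 8.55e-07). S100a13 overlaps by 98 bases with S100a1 on the other strand, and the strand setting of the counting is not given in the sources used here. Its cargo gene Il1a was at 1.99 ± 0.12 CPM at day 14 and 1.29 ± 0.70 CPM at day 1 (adjusted p = 0.135), and Fgf1 at 0.90 ± 0.19 and 0.52 ± 0.14 CPM (adjusted p = 0.0669). Fgf1 rose in the second week (log2 fold change 1.75 ± 0.38, adjusted p = 0.00139).

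S100a14, an S100 gene of epithelia, lies 2267 bases beyond S100a13. Its levels were 328, 381 and 363 CPM at day 1, 531, 515 and 529 CPM at day 7 and 550.5, 507 and 477 CPM at day 14. Days 7 and 14 overlapped, and each lay above day 1. S100a14 rose between days 1 and 7 (0.56 ± 0.06 log2, adjusted p = 1.47e-05) and gave -0.04 ± 0.06 between days 7 and 14 (adjusted p = 0.609). That second value was called lower with library totals alone (-0.21, adjusted p = 0.00828), in a range up to 0.978. Day 14 stood 1.43-fold above day 1.

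S100a16, a widely expressed S100 gene, was the only one of the 9 lower at day 14 than at day 1. It was at 223, 245 and 246 CPM at day 1, 272, 266 and 268 CPM at day 7 and 196, 186 and 179 CPM at day 14, and the days did not overlap. S100a16 fell between days 7 and 14 (log2 fold change -0.52 ± 0.05, adjusted p = 2.25e-06), and day 14 lay below day 1 (-0.34 ± 0.05, adjusted p = 5.57e-05). Against a fold of 1.5 the second-week fall was called with library totals alone (-0.69, adjusted p = 0.0312) and in no other alternative (up to 1). The earlier step was small, at 0.18 ± 0.05 (adjusted p = 0.0127). It did not pass with library totals alone (0.08, adjusted p = 0.224, the highest over the alternatives, whose lowest was 0.00644). Its neighbour S100a14, which lies 8416 bases before it, rose 1.43-fold between days 1 and 14.

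The 7 S100 members lie on chromosome 3 (GRCm38), in 2 groups. The first holds S100a13 (90514233 to 90524581), S100a14 (90526849 to 90528837), S100a16 (90537254 to 90543151), S100a4 (90603770 to 90606045) and S100a6 (90612894 to 90614414). The second, 2906081 bases further on, holds S100a11 (93520496 to 93526288) and S100a10 (93555117 to 93564645), which are 28828 bases apart. Neighbours differed in course, as S100a4 rose in the second week while S100a6 and S100a16 fell.

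Day 1 library 4 had the lowest level of S100a11, S100a13, S100a14 and S100a16 at that day. S100a10 and Calm4 were lowest in library 5, and S100a4, S100a6 and Calml3 in library 6. Library 4 also had the lowest summed level of 11 suprabasal keratinocyte genes, at 10490 CPM against 15186 and 15491 CPM in the other libraries of day 1. Without it, the counts of called members were the same in the first week and over the whole span (8 and 9), and 7 in place of 6 in the second week. Of all genes tested in that fit, 44.4% were called in the first week, 67.3% in the second and 70.4% over the whole span. The part of layer composition in the day 1 values was not tested.

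**Figure D4:**
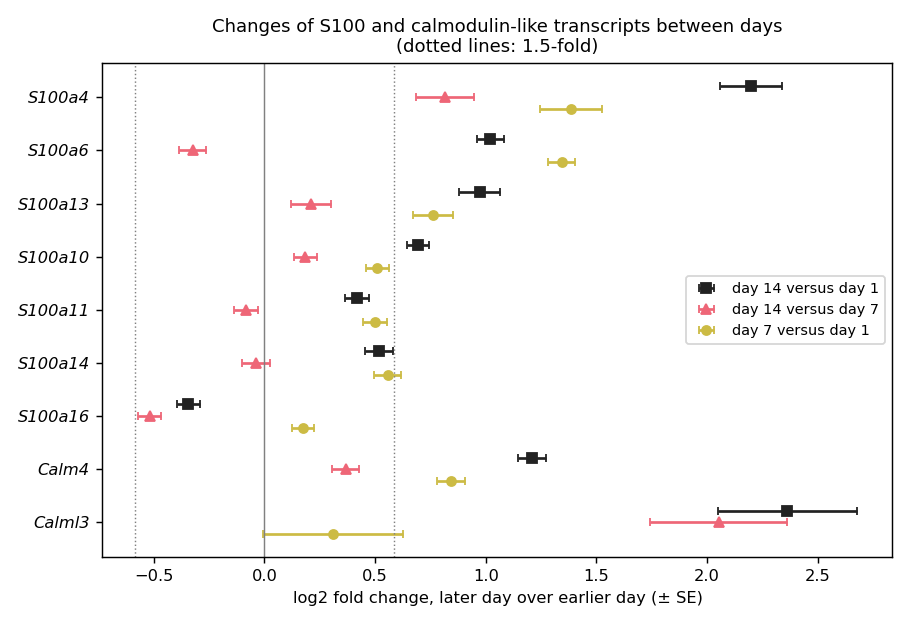
Log2 fold change ± SE of each gene for the 3 pairs of days (horizontal axis, later day over earlier day; edgeR over all 9 libraries). Dotted lines mark a 1.5-fold change. Values for day 14 versus day 7 lie below 0 for S100a6, S100a11, S100a14 and S100a16, and the highest value is that of Calml3 for day 14 versus day 1.

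Calm4 encodes a skin calmodulin-like protein of differentiating mouse keratinocytes. Its levels were 193, 187 and 204 CPM at day 1, 351, 355 and 342 CPM at day 7 and 496, 444 and 412 CPM at day 14. The days did not overlap. Calm4 rose in both steps, by 0.84 ± 0.06 log2 in the first week (adjusted p = 4.22e-07) and by 0.37 ± 0.06 in the second (adjusted p = 0.000202). Day 14 stood 2.31-fold above day 1 (adjusted p = 3.56e-09). Both weekly calls held in all alternatives run.

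Calml3 encodes a calmodulin-like protein of epithelial cells that in human cells binds myosin X. It was at 2.31, 4.10 and 1.69 CPM at day 1, 3.79, 3.21 and 3.02 CPM at day 7 and 16.5, 14.9 and 10.3 CPM at day 14. Day 14 stood clear of the earlier days, which overlapped. The value for day 7 versus day 1 was 0.31 ± 0.32 log2 (adjusted p = 0.455), but 0.74 without day 1 library 5 (adjusted p = 0.021), against 0.865 at the highest over the alternatives. Calml3 rose between days 7 and 14 (2.05 ± 0.31 log2, adjusted p = 0.000368), and day 14 stood 5.14-fold above day 1 (2.36 ± 0.31, adjusted p = 0.000129). Within day 1 its coefficient of variation was 46.4%, the highest of the 9. The myosin X gene Myo10 was at 136 ± 11.2 CPM at day 14 and 92.5 ± 2.77 CPM at day 1 and rose (0.55 ± 0.06 log2, adjusted p = 2.03e-06).

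The log2 ratio of Calm4 to Calml3 counts was 6.27 ± 0.71 at day 1, 6.71 ± 0.16 at day 7 and 5.04 ± 0.24 at day 14. Day 14 lay below the other days, which overlapped. The exact permutation test over the days gave p = 0.0179 (0.0357 adjusted over the 4 ratios). The adjusted value was 0.0524 without day 7 library 2 or 3, 0.0714 without day 14 library 4 or 5, 0.0667 without day 14 library 6 and 0.0952 with a rank statistic, against 0.0143 at the lowest.

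Calml3 and Calm4 lie 33438 bases apart on chromosome 13 (GRCm38, 3802893 to 3804318 and 3837757 to 3838671), and a further skin calmodulin-like gene, Calm5, lies 15501 bases beyond Calm4. Calm5 was at 24.7 ± 1.86 CPM per kilobase at day 1, 96.2 ± 11.1 at day 7 and 177 ± 5.44 at day 14. It rose in both steps, by 1.96 ± 0.08 log2 in the first week (adjusted p = 7.77e-09) and by 0.88 ± 0.08 in the second (adjusted p = 1.3e-06), and day 14 stood 7.15-fold above day 1. The windows before Calm4 and Calm5 are shown because they are nearly the same sequence. Over 256 aligned bases of the RefSeq windows, 255 were identical at a shift of 44 bases. The aligned bases that precede both start sites (GRCm38.p6, plus strand, chr13:3837551-3837756 and chr13:3853923-3854128) are given 5′ to 3′, with the base that differs in capitals.
Calm4: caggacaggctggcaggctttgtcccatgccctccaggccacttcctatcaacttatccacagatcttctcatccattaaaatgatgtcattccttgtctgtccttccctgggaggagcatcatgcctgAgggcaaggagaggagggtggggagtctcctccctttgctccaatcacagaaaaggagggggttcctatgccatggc
Calm5: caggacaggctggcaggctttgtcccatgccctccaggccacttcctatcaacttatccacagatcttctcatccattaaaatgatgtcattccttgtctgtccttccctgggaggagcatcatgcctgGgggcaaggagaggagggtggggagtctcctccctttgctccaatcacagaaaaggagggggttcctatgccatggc
The annotated transcripts differed more. The longest identical run between those of Calm4 and Calm5 was 69 bases, and no 75-base stretch was shared. For reads shorter than that run, values of each gene may include reads of the other.

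Calm2 and Calm3, which encode calmodulin itself, moved in opposite directions. Calm2 rose, with 365 ± 19.9 CPM per kilobase at day 14 against 194 ± 4.91 at day 1 (log2 fold change 0.91 ± 0.05, adjusted p = 4.42e-09). Calm3 fell, with 23.2 ± 1.61 CPM per kilobase at day 14 against 33.2 ± 3.0 at day 1 (-0.52 ± 0.07, adjusted p = 2.23e-05). Calml4, another calmodulin-like gene, had 235, 335 and 353 counts at day 1, 25, 34 and 23 at day 7 and 0 in each library of day 14. Against a floor of 3 counts per library it was at least 81.3-fold lower at day 14 than at day 1.

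**Figure D5:**
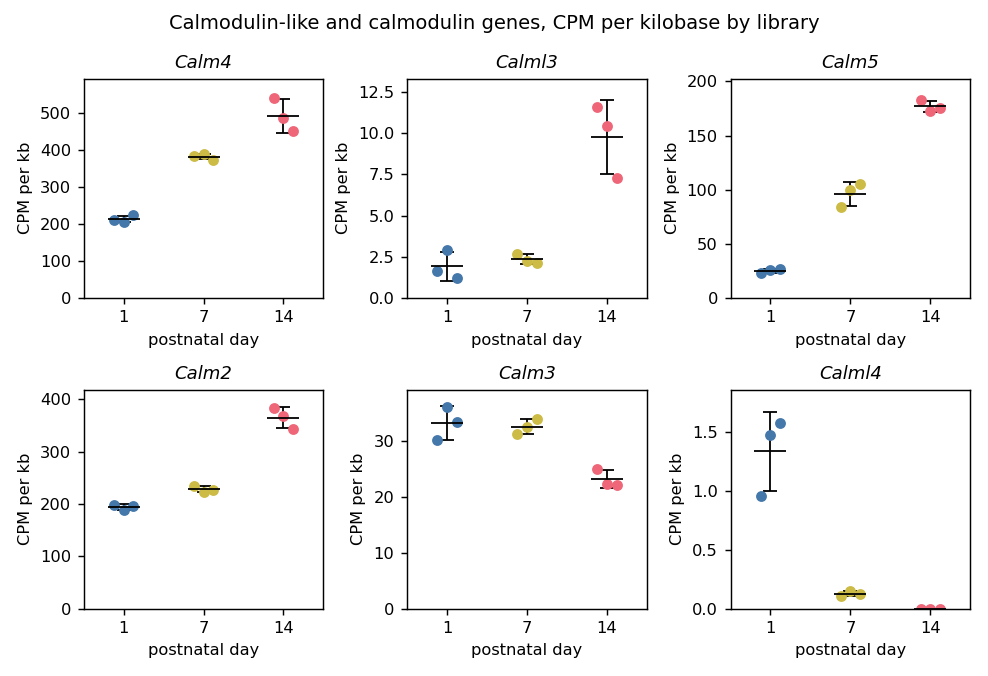
CPM per kilobase of merged exons (vertical axes, from 0) of the calmodulin-like and calmodulin genes by postnatal day, with libraries as points and mean ± SD of 3 as bars. Calm4, Calm5, Calm2 and Calml3 are highest at day 14, Calm3 is lowest there, and Calml4 is at 0 at day 14.

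Other S100 genes were low in these cells, and so were the members S100a4 and Calml3 at days 1 and 7. S100a1 averaged 6.29, 9.34 and 7.83 CPM per kilobase at days 1, 7 and 14. Its means lay above those of S100a4 (2.81 and 7.33) and Calml3 (1.90 and 2.35) at days 1 and 7, and below both at day 14. The means of S100a3, S100b, S100g, S100z and S100a7a stayed below 1 at each day. S100a8, of the calprotectin pair, was at 0.26 ± 0.06 CPM per kilobase at day 1, 3.90 ± 1.13 at day 7 and 0.51 ± 0.31 at day 14, and S100a9 at 1.83 ± 0.67, 1.86 ± 0.60 and 0.44 ± 0.25 at the same days. Of 10 tested genes in a list of other S100 and calmodulin genes, 3 were higher and 3 lower at day 14 than at day 1. Over all genes tested, 35.5% were higher and 38.4% lower there. Of 4 tested genes whose proteins fuse an S100 domain to a cornified envelope repeat, Flg2 (4.55 ± 1.24 CPM at day 14, 0.15 ± 0.08 at day 1) and Hrnr (2.15 ± 1.04 and 0.44 ± 0.22 CPM) rose, and Tchh and Rptn fell.

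Among 10 tested annexin genes 7 were higher and 2 lower at day 14 than at day 1, with a median log2 fold change of 0.49. Over all genes tested, 35.5% were higher and 38.4% lower, with a median of -0.05, and 73.9% were called in all, so being called was common for any list compared between these days. Anxa8 rose, with 2255 ± 43.6 CPM at day 14 and 476 ± 4.24 CPM at day 1 (2.25 ± 0.05 log2, adjusted p = 2.74e-12). Anxa6 fell, with 22.4 ± 3.91 CPM at day 14 and 102 ± 2.18 CPM at day 1. Of 10 other partner genes 5 rose and 2 fell. Ahnak, a giant scaffold protein that binds the S100a10 and annexin A2 complex, was at 3992 ± 203 CPM at day 14 and 1045 ± 27.0 CPM at day 1 (1.93 ± 0.07 log2, adjusted p = 2.48e-10). Myh9, a non-muscle myosin partner of S100a4, rose by 0.33 ± 0.05. Myh10, another non-muscle myosin gene of this list, fell, with 0.53 ± 0.55 CPM at day 14 and 6.71 ± 1.18 CPM at day 1 (-3.65 ± 0.64 log2, edgeR adjusted p = 0.00109). Of 6 receptor genes 3 rose and 2 fell, among them a fall of Ager, the receptor for advanced glycation end products, to 2.55 ± 0.39 CPM at day 14 against 6.53 ± 1.13 CPM at day 1.

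Of 22 tested genes of calcium entry, stores and pumps, 13 were higher and 5 lower at day 14 than at day 1, with a median of 0.42, beside 35.5% higher and 38.4% lower over all genes tested. The inositol trisphosphate receptor gene Itpr3 was at 681 ± 21.5 CPM at day 14 and 432 ± 23.1 CPM at day 1, and the calcium pump gene Atp2b4 at 639.6 ± 50.4 and 413 ± 7.47 CPM. Both rose, while the channel genes Trpv4 (-1.12 ± 0.11) and Orai2 (-1.23 ± 0.16) fell. Among 17 tested calmodulin-dependent kinase, calcineurin and Nfat genes, 10 rose and 4 fell, with a median of 0.60, beside the same shares over all genes tested. The calcineurin subunit genes Ppp3ca (0.88 ± 0.06) and Ppp3r1 (0.67 ± 0.06) were among the rises, and Ppp3cb (-0.37 ± 0.05) and the kinase gene Camkk2 (-1.10 ± 0.09) among the falls. Immediate early and heat shock genes were listed for a possible response to handling. Of these 13, 10 were higher and 2 lower at day 14 than at day 1. Fos (0.95 ± 0.17 log2) and Jun (0.71 ± 0.07) were among the rises. The 2 lower were the heat shock genes Hspa1a (-0.80 ± 0.10) and Hspa1b (-0.61 ± 0.09). The part of this list in the values of calcium genes was not tested.

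Genes of like pattern were sought among 1955 non-member genes with a mean of at least 10 CPM and a range of day means of at least 1 on the log2 scale, by Pearson's r of log2 CPM over the 9 libraries, which fall into 3 days. For Calml3 the 3 nearest were Shb (r = 0.979), Tgfa (0.975) and Klhl11 (0.969), of which Tgfa, an epidermal growth factor receptor ligand, averaged 7.01, 7.68 and 20.3 CPM at days 1, 7 and 14. For S100a4 they were Ccdc64 (0.995), Dffa (0.995) and Irak3 (0.994), with Irak3, an inhibitor of interleukin 1 receptor signalling, at 3.52, 11.2 and 21.7 CPM. For S100a6 they were Efemp1 (0.99), Slc16a14 (0.988) and the beta-defensin Defb1 (0.987), which averaged 5.10, 27.6 and 17.6 CPM. These values describe the order of the days and the spread between libraries, and no test was made of them.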

How the data were processed

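The tools named in the submitters' processing notes are Trimmomatic, StringTie 1.3.4d, HISAT2 2.1.0 and bcl2fastq 2.20.0, with mm10 as the build. How reads were counted, with which strand setting and annotation release, is not given in the sources used here. Raw read counts per gene are what the authors deposited, by the column names of the table. A further 18 columns of normalised values were not used, since column names give a day and a library number but no sample title.

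Counts of all 9 libraries were fitted in 1 model with edgeR 4.0.16 in R 4.3.3 (filterByExpr, TMM, robust quasi-likelihood, day as a factor, Benjamini-Hochberg over 14507 genes, and glmTreat for a fold of 1.5). Ratios were tested by exact permutation of libraries. The edgeR test of day 7 versus day 1 was tried on simulated counts with the same dispersion for all genes, and the permutation test on made-up values. Other steps were not tried in this way. Alternatives used DESeq2 1.42.0, limma 3.58.1, other scalings and filters, and left out single libraries. Gene positions and promoters are those of RefSeq, GRCm38.p6, and positions were matched by gene identifier. Exon lengths are those of GENCODE vM21, matched by symbol for 23644 of 24532 genes. Levels per kilobase replaced a normalised column after results were known. All 9 members are named. From each other gene list up to 2 called genes of highest mean CPM per direction, for day 14 versus day 1, could be named. Calm5, Anxa1, Myo10, Il1a, Fgf1, S100a8 and other family or partner genes outside that rule were chosen after their values were seen. Members and lists were chosen with earlier results of these data known. Libraries of a day differed by more than sampling noise (chi-square per degree of freedom at least 14.8). A result for a further gene of the family is not reported here.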

Additional observations from a re-analysis of the deposited data

How the results depend on the processing

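Of the recomputed log2 fold changes of the 9 genes, 455 kept their direction and side of the threshold, 9 passed where the reported value did not and 3 lost the call. The only change of sign was S100a14 for day 14 versus day 7, at 0.00232 without day 14 library 6 (lowest -0.102 with single libraries left out), and it was called in neither. Counts of called members ranged, with single libraries left out, from 8 to 9 in the first week, from 5 to 7 in the second and stayed at 9 over the whole span. Of all genes tested, 41.1% to 49.2%, 61.7% to 67.3% and 69.5% to 72.9% were called in the same settings. Against a fold of 1.5 the member counts ranged from 3 to 4, 1 to 2 and 5 to 6, beside 12.3%, 22% and 34.8% of the genes tested in the reported fit. The second count was 2, against 1, with RLE size factors (Calml3 and S100a4 higher) and with library totals alone (Calml3 higher, S100a16 lower). The cause was not tested. With a rank statistic the day 14 minus day 1 differences stay by construction at -1.22 (Calm4 to Calml3), 1.18 (S100a4 to S100a6) and -1.22 (S100a11 to Anxa1), each with an adjusted p of 0.0952. With single libraries left out they ran from -1.60 to -0.90, from 1.12 to 1.23 and from -1.34 to -1.11, and that of S100a10 to Anxa2 from -0.00826 to 0.0657. The alternatives of the test for any day, where all 9 passed throughout, of the medians and of the gene length were added after seeing the data. Days 1 and 14 share header numbers 4, 5 and 6. Deviations of same-numbered libraries correlated at 0.0141, 0.0102 and 0.104, and those of differently numbered libraries at -0.0654 to 0.0491. The value of 0.104 was the highest of all. No label pairs animals by number, and the numbers were not taken as pairs. With the header number as a replicate block, 9 of 9 members were called, as without it, beside 71.1% of the genes tested. The lowest counts were those of S100a4 (89 to 416 per library) and Calml3 (104 to 825).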
